A study of Mus musculus with 6 samples.

Results

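Maternally methylated imprint control regions, read as 9 fixed windows on 6 autosomes, are described here across 6 methylation libraries of mouse embryonic stem cells. The windows serve 10 genes: Mcts2, Nnat, Plagl1, Grb10, Zrsr1, Peg13, Slc38a4, Igf2r with Airn, and Impact. Every listed cytosine whose mm9 position fell inside a window was taken, whatever its level. This gave 230 cytosines listed in at least 1 library, of 750150 in the series, and 144 listed in all 6 libraries, of 376836. Per library the windows held between 160 cytosines (Dnmt1 knockdown) and 200 cytosines (the Tet1 and Tet2 knockdown and the Dnmt3b knockdown). All means below use the 144 cytosines listed in all libraries, so that each library is read at the same positions.

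The cells were E14, an established mouse embryonic stem cell line, and DNA methylation was read by reduced representation bisulfite sequencing, which samples CpG-rich fragments. Bisulfite reading does not separate 5-methylcytosine from 5-hydroxymethylcytosine, the product of the TET enzymes. The 6 groups were defined by the short hairpin RNA (shRNA) the cells received: a control hairpin, hairpins to both Tet1 and Tet2, a hairpin to Dnmt1, to Dnmt3a or to Dnmt3b, and hairpins to both Dnmt3a and Dnmt3b. The knocked-down genes encode the maintenance methyltransferase (Dnmt1), the de novo methyltransferases (Dnmt3a and Dnmt3b) and the 5-methylcytosine oxidases (Tet1 and Tet2). The title of the Dnmt1 sample calls its hairpin Dnmt1a. How far each target was reduced, and for how long, was not stated in the labels. With a single library in every group, no difference below has a replicate error or a p-value. SDs are over the cytosines of a window or over windows, and neighbouring cytosines are read on the same molecules.

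A maternal germline imprint is methylation laid down in the oocyte on the maternal copy of a control region and absent from the paternal copy. After fertilisation the mark is kept through the early genome-wide loss of methylation by zinc-finger proteins such as ZFP57, which binds a methylated hexamer, and by DNMT1, which copies methylation at each cell division. An intact imprint therefore reads as an intermediate level in a pool of cells. Mouse embryonic stem cell lines are known to lose or gain methylation at individual imprints in culture.

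Several of the genes are nested in larger ones. In the RefSeq gene table (GRCm38.p6), Mcts2 lies within H13, Nnat within Blcap, Zrsr1 within Commd1 and Peg13 within Trappc9, while Airn overlaps Igf2r. Promoter sequences from RefSeq could be placed on the measured cytosines for 4 genes, by their strand, spacing and 5-base contexts. The contexts matched at 13 of 14 cytosines for Mcts2, 4 of 4 for Nnat, 6 of 7 for Plagl1 and 8 of 8 for Zrsr1, against at most 2 for the next-best placement. The Nnat matches all lay downstream of the start. The promoters of Grb10, Slc38a4, Igf2r and Airn could not be placed this way, and Peg13 and Impact had no entry. The 250 bases upstream of the start are shown for the other 3 because their windows cover extremes of level below. They are a window read low (Mcts2), a window read high (Plagl1) and the window whose means in the 5 libraries other than Dnmt1 lay closest together (Zrsr1). These labels belong to the whole windows and not to the printed stretches. Capitals mark the CpGs whose cytosine was listed in at least 1 library with a matching context.
Mcts2, GRCm38.p6 chr2:152686898-152687147, plus strand: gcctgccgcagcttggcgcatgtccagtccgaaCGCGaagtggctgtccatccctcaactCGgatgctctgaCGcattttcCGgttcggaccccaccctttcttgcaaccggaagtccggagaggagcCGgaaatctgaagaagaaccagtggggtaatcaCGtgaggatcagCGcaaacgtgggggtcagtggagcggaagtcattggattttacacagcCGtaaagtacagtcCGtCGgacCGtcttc
Plagl1, GRCm38.p6 chr10:13090582-13090831, plus strand: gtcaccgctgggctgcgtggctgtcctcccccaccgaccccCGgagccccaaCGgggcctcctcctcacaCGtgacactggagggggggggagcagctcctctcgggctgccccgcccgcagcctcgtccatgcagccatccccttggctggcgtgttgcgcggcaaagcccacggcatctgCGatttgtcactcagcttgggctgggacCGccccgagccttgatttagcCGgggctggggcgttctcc
Zrsr1, GRCm38.p6 chr11:22971755-22972004, plus strand: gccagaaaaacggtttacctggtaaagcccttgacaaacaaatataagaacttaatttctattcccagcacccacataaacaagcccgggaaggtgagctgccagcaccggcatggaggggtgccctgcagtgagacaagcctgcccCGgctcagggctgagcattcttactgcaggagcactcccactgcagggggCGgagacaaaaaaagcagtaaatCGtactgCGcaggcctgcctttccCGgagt
The Mcts2 stretch holds 20 CpGs, of which 12 were read, the Plagl1 stretch 19, of which 6 were read, and the Zrsr1 stretch 8, of which 5 were read. The ZFP57 hexamer TGCCGC, searched on both strands (GCGGCA on the other), occurs at bases 4 to 9 of the Mcts2 stretch and as GCGGCA at bases 161 to 166 of the Plagl1 stretch, and not in the Zrsr1 stretch. It occurs in 8.68% of the 32851 upstream sequences of the same length in the table. None of the read CpGs lies in either match.

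Control cells read between 24.7% and 89.0% in the 8 windows with at least 5 shared cytosines, with a mean of 51.5% ± 21.3 (SD, n = 8 windows). The windows thus covered a wide span of levels before any knockdown, shown in the plot of cytosine levels by window and library. Among these, 5 windows sat between 35.5% and 49.7%. Mcts2 sat below that band, Plagl1 and Peg13 above it, and Slc38a4, with 3 shared cytosines, was read at 6.23%.

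**Figure D1:**
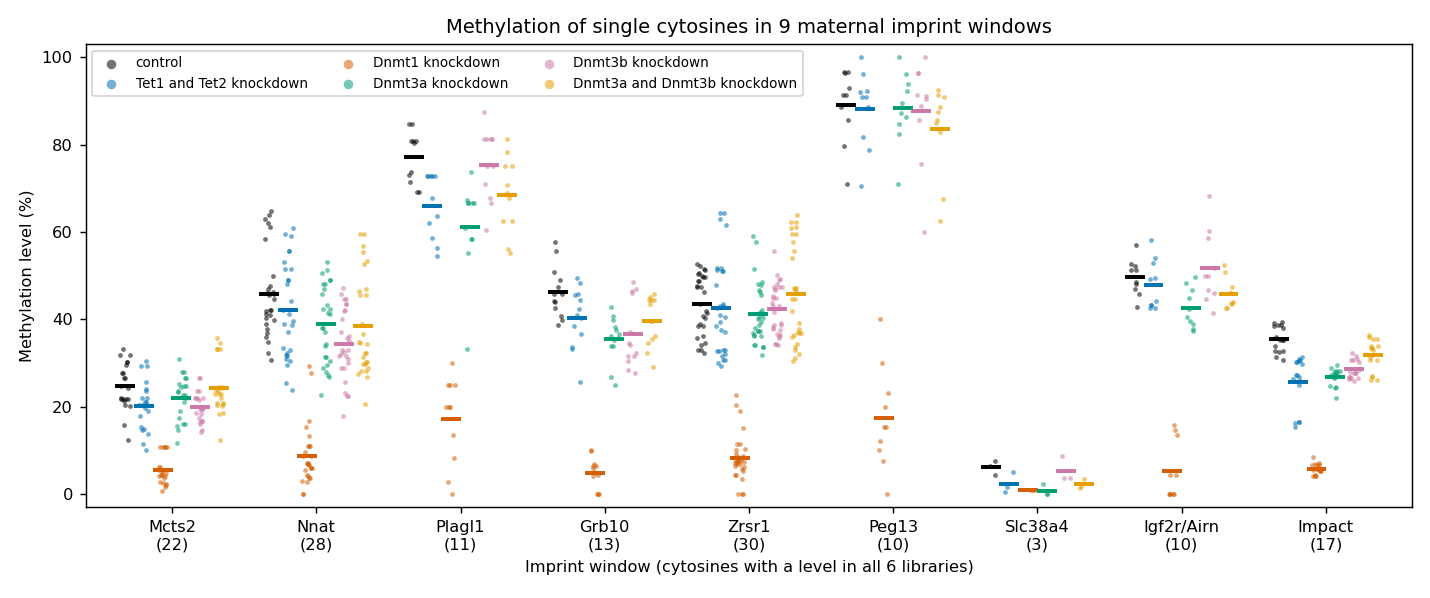
Methylation level (percent, y axis) of each cytosine listed in all libraries, by window (x axis) and library (colour), with bars at the library means. Control means run from 6.23% at Slc38a4 to 89.0% at Peg13, and the Dnmt1 knockdown has the lowest mean in each of the 8 windows with at least 5 shared cytosines.

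Mcts2, Nnat, Zrsr1 and Peg13 belong to genes or transcripts nested in a host gene. Mcts2 (mm9 chr2:152512000-152513500), a retrogene related to a translation factor, had 22 shared cytosines and read 24.7% ± 5.38 (SD over cytosines) in control. It read 20.3% in the Tet1 and Tet2 knockdown, 22.1% in Dnmt3a, 19.9% in Dnmt3b, 24.3% in the Dnmt3a and Dnmt3b double knockdown and 5.47% in Dnmt1. Outside the Dnmt1 library the 5 readings lay within 4.85 points of each other, and of the 22 cytosines 19 were lower than control in Tet1 and Tet2, 17 in Dnmt3a and 16 in Dnmt3b. The lowest control cytosine, at 152512668, read 12.4% and the highest, at 152512873, read 33.3%. Both lie in the printed sequence upstream of the start, at bases 35 and 240. The 5 cytosines read at bases 223 to 252, the last just past the start, had the same level of 10.7% in the Dnmt1 library.

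Nnat (mm9 chr2:157385000-157388000), which encodes neuronatin, a small membrane protein of the endoplasmic reticulum expressed in brain, had 28 shared cytosines in all libraries. It read 45.8% ± 9.86 in control, 42.04% in Tet1 and Tet2, 38.9% in Dnmt3a, 34.3% in Dnmt3b, 38.5% in the double knockdown and 8.66% in Dnmt1. The Dnmt3b knockdown gave the lowest of the readings outside Dnmt1, and 25 of 28 cytosines were lower there than in control. Control levels ran from 30.8% at 157386011 to 64.8% at 157385867. The second of these lies in a run of 6 plus-strand cytosines, 834 to 883 bases into the window, just downstream of the placed Nnat start, where control read 62.2%, Dnmt3a 47.4% and Dnmt3b 43.2%.

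Zrsr1 (mm9 chr11:22871000-22875000), a retrogene related to a splicing factor subunit, had the most shared cytosines, 30 of 59 listed. Its readings were 43.6% ± 6.76 in control, 42.7% in Tet1 and Tet2, 41.3% in Dnmt3a, 42.4% in Dnmt3b, 45.7% in the double knockdown and 8.32% in Dnmt1. The 5 libraries other than Dnmt1 spanned 4.42 points, the narrowest span of the 8 windows, and the double knockdown was the highest. Control levels ran from 32.4% at 22872128 to 52.6% at 22872947. In the printed upstream sequence the cytosine at base 245 was listed in all libraries and read 40.7% in control and 3.4% in Dnmt1. The cytosine at base 148, not listed in Dnmt1, read 50% in control, 30% in Tet1 and Tet2 and 31.2% in Dnmt3a. It read 23.5% in Dnmt3b and 64.3% in the double knockdown, so single cytosines there spread more than the window means. The others in that stretch were listed in the Dnmt3b library alone.

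Peg13 (mm9 chr15:72636000-72642500), a long noncoding RNA expressed from the paternal copy, had 10 shared cytosines of 18. It was the most methylated window, at 89.0% ± 8.29 in control. The Tet1 and Tet2 knockdown read 88.2%, Dnmt3a 88.3%, Dnmt3b 87.6% and the double knockdown 83.4%, all within 5.58 points of control. The Dnmt1 knockdown read 17.4%. The lowest control cytosine, at 72640527, read 71.0% and the highest, at 72640355, read 96.7%, so the control levels of its shared cytosines all lay above those of the 5 intermediate windows.

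Plagl1, Grb10 and Igf2r are genes that act on growth. Plagl1 (mm9 chr10:12809000-12812500), a zinc-finger transcription factor that restrains the cell cycle, had 11 shared cytosines of 20, all on the minus strand. It read 77.1% ± 5.92 in control, 66.0% in Tet1 and Tet2, 61.2% in Dnmt3a, 75.3% in Dnmt3b, 68.5% in the double knockdown and 17.2% in Dnmt1. It had the widest span of the 5 libraries other than Dnmt1, 15.9 points, between control and Dnmt3a. Of the 11 cytosines, 7 form a run 1741 to 1787 bases into the window. In that run the Dnmt3a levels took only the values 33.3%, 58.3% and 66.7%. Levels this coarse can come from few reads, and no counts were given, so this span is uncertain. All 11 cytosines were lower than control in the Tet1 and Tet2 and in the Dnmt3a knockdown. Control levels ran from 69.2% at 12810620, base 233 of the printed sequence, to 84.6% at 12810779.

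Grb10 (mm9 chr11:11925000-11927500), an adaptor protein that dampens insulin and growth factor receptor signalling, had 13 shared cytosines of 31. Its levels were 46.3% ± 5.79 in control, 40.4% in Tet1 and Tet2, 35.6% in Dnmt3a, 36.6% in Dnmt3b, 39.6% in the double knockdown and 4.92% in Dnmt1. Control was the highest library and Dnmt3a the lowest outside Dnmt1. On the minus strand (8 cytosines) Dnmt3a differed from control by -15.8 points, and on the plus strand (5 cytosines) by -2.66. The strands were read at different positions. The minus-strand run 763 to 807 bases into the window differed by -9.40 points and the run 1836 to 1884 bases in by -19.7. Control cytosines ran from 38.8% at 11926770 to 57.7% at 11926836.

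The window shared by Igf2r and Airn (mm9 chr17:12934000-12936500) controls Igf2r, the receptor that clears insulin-like growth factor 2, through Airn, the noncoding RNA that silences the paternal copy of Igf2r. Its 10 shared cytosines of 19 read 49.7% ± 4.05 in control, 48.0% in Tet1 and Tet2, 42.6% in Dnmt3a, 51.8% in Dnmt3b, 45.9% in the double knockdown and 5.27% in Dnmt1. Dnmt3b was the highest library here, and the window mean in control was the nearest to an equal split of methylated and unmethylated copies. Shared control cytosines ran from 42.9% at 12934491 to 57.1% at 12934607. Another 5 cytosines were listed in the control library alone, at 92.3% to 100%, and raised the mean over all 15 control cytosines to 64.9%. They do not enter any comparison.

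Impact and Slc38a4 complete the set. Impact (mm9 chr18:13130000-13134000), a regulator of translation under amino acid shortage through the kinase GCN2, had 17 shared cytosines of 27. It read 35.5% ± 2.87 in control, 25.7% in Tet1 and Tet2, 26.8% in Dnmt3a, 28.5% in Dnmt3b, 31.9% in the double knockdown and 5.80% in Dnmt1. Its control cytosines were the most alike of the 8 windows, from 30.6% to 39.3%, and each of the 17 was lower than control in the Tet1 and Tet2 and in the Dnmt3a knockdown. Slc38a4 (mm9 chr15:96884000-96887000), an amino acid transporter, was read at 3 minus-strand cytosines, with means of 6.23% in control, 2.40% in Tet1 and Tet2, 1% in Dnmt1, 0.80% in Dnmt3a, 5.30% in Dnmt3b and 2.30% in the double knockdown. Where these 3 cytosines lie relative to the imprinted part of the window was not tested, and Slc38a4 is left out of the averages below.

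The Dnmt1 knockdown asks how far imprints depend on the maintenance enzyme. It read 9.13% ± 5.24 (SD, n = 8 windows) against 51.5% ± 21.3 in control, a mean difference of -42.3 ± 16.7 points, with 8 of 8 windows below control, where 70.6% of all clusters and 99.9% of intermediate clusters were below it. The smallest difference was at Mcts2 (-19.25 points) and the largest at Peg13 (-71.6 points), the windows with the lowest and the highest control level. The mean level over 94 mitochondrial cytosines was at most 0.066% in any library, and the window means in the Dnmt1 library lay above it. Whether mitochondrial DNA gives the background of these windows was not tested. Relative to control the windows were closer together: the Dnmt1 library held 17.4% ± 4.63 of the control level. Igf2r with Airn and Grb10 each held 10.6%, and Plagl1 held the most, 22.4%. Of the 8 windows, 7 met the rule used to call a region, a mean difference of 20 points or more shared in sign by 80% or more of the cytosines, against 22.9% of all autosomal clusters of cytosines. Mcts2, which began at 24.7%, did not reach it.

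Clusters were runs of at least 5 shared cytosines with gaps of at most 100 bp. The windows held 10 of the 22524 autosomal clusters, 9 of them intermediate (a median over the 6 libraries of 20% to 80%) and 1, at Peg13, high. In the Dnmt1 knockdown 9 of the 10 were lower by the rule, a count near the background of intermediate clusters, of which 96.2% were. The 2947 intermediate clusters outside the windows had a median difference of -51.7 points and held a median of 17.2% of the control level. Of the 155 window cytosines that control and Dnmt1 both listed, 138 stood 20 or more points below control and 0 above it, against 31.1% and 0.0115% of all cytosines. That share is not matched for level: 17324 of the 22524 clusters were low (a median below 20%), where a fall of 20 points is seldom possible.

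The other 4 knockdowns gave small differences. The mean over the 8 windows was -4.82 ± 3.92 points for Tet1 and Tet2, -6.87 ± 5.03 for Dnmt3a, -4.42 ± 4.67 for Dnmt3b and -4.25 ± 3.64 for the double knockdown. For Tet1 and Tet2 all 8 windows were below control, from -11.1 points at Plagl1 to -0.83 at Peg13, where 25.5% of all clusters and 18% of intermediate clusters were below control by any amount. For Dnmt3a all 8 were below, from -15.9 at Plagl1 to -0.68 at Peg13, against 68.7% and 99% of clusters. For Dnmt3b 7 of 8 were below, the exception being Igf2r with Airn at 2.08 (-1.23 on the plus strand alone), against 37% and 38.1%. For the double knockdown 7 of 8 were below, the exception being Zrsr1 at 2.12 (-0.30 by the median over cytosines), against 67% and 95.5%. Counted as clusters, 2 of the 9 intermediate clusters inside the windows were above control for Tet1 and Tet2. The counts above were 0 for Dnmt3a, 2 for Dnmt3b and 1 for the double knockdown. The high cluster, at Peg13, stood 0.58 points above control for Tet1 and Tet2 and below it for the others. The windows and the clusters they are set against share the 6 libraries, and the 4 comparisons share the control library.

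**Figure D2:**
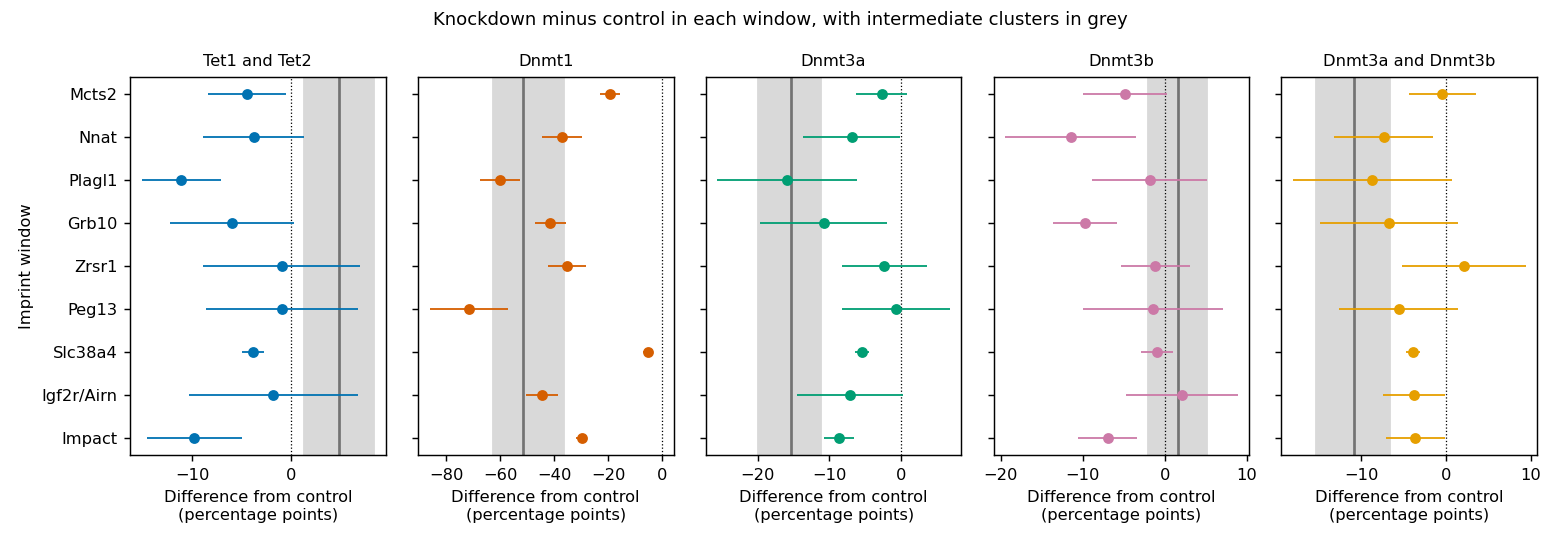
Difference from control (percentage points, x axis) of each window (y axis) in the 5 knockdowns, as the mean with the SD over cytosines. Grey bands and lines are the quartiles and median of intermediate clusters outside the windows. In the 8 windows with at least 5 shared cytosines the Dnmt1 differences run from -71.6 to -19.25 points, and those of the other 4 knockdowns from -15.9 to 2.12 points.

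No window and no cluster inside a window was called in these 4 knockdowns. The shares of all clusters called lower were 0.0178% for Tet1 and Tet2, 3.36% for Dnmt3a, 0.0222% for Dnmt3b and 1.29% for the double knockdown, and among intermediate clusters 0.135%, 24.7%, 0.169% and 9.4%. Beside the shares of all clusters, a count of 0 among 10 clusters is near the background in each of the 4 knockdowns. The share was largest for Dnmt3a among intermediate clusters, and the count of 0 among so few clusters is not read as a result. Called higher were 0.222% of clusters for Tet1 and Tet2, 0.0799% for Dnmt3b, 0.00444% for the double knockdown and 0% for Dnmt3a. Of single window cytosines, 6 of 179 stood 20 or more points below control in the Tet1 and Tet2 knockdown (0.887% of all cytosines) and 3 stood as far above (2.57%). The counts below were 5 of 164 for Dnmt3a (7.98%), 8 of 175 for Dnmt3b (1.22%) and 9 of 169 for the double knockdown (4.89%), which also had 2 above (0.421%). None stood above for Dnmt3a (0.293%) or Dnmt3b (1.74%). Of the 8 in Dnmt3b, 5 were shared cytosines of Nnat. The shares beside these counts are over all cytosines and are not matched for control level, so the counts are not read as an excess.

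Because 1 control library enters all of these differences, its own place among the libraries was read. Control was the highest of the 6 libraries in 6 of the 8 windows. In the 2947 intermediate clusters outside it was the highest in 10.99%, and the Tet1 and Tet2 library in 64.2%. The first count is of whole windows, which can hold several clusters. By clusters, control was not the highest at Plagl1, Peg13 or Zrsr1, nor in the Nnat cluster 2180 to 2356 bases into the window. It was the highest in the clusters of Mcts2, Grb10 and Impact and in the other Nnat clusters. Each library was therefore also set against the median of the others without Dnmt1, an alternative added after the values were seen. Control then stood 5.19 ± 3.47 points above the others, higher in 8 of 8 windows. Tet1 and Tet2 stood at -0.95 ± 3.21 (4 of 8 lower), Dnmt3a at -3.45 ± 3.65 (7 of 8 lower), Dnmt3b at -0.27 ± 4.61 (6 of 8 lower) and the double knockdown at -0.04 ± 3.37 (4 of 8 lower). The mean differences of the Tet1 and Tet2, Dnmt3b and double knockdowns were thus below 1 point in this reading. Over the intermediate clusters of the genome the same reading gave 4.74 for control, 10.6 for Tet1 and Tet2, -15.5 for Dnmt3a, 6.94 for Dnmt3b and -11.1 for the double knockdown.

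A reading that leaves control out compares the knockdowns with each other. In the 9 intermediate clusters of the windows the Tet1 and Tet2 library minus the Dnmt3a library had a median of 1.29 points, with a range of -2.56 to 9.27. In the 2947 intermediate clusters outside it had a median of 20.4 points and was above 0 in 98.8%, and 263 of them (8.92%) were at or below the largest value of the windows. Restricting those to the 373 clusters with at least 10 cytosines gave a median of 19.2. By level, outside clusters with a median of 20% to 40%, 40% to 60% and 60% to 80% had medians of 21.4, 24.2 and 17.8 points. In this contrast, then, the libraries that stood far apart over most partly methylated sequence lay within 9.27 points of each other in each of the 9 window clusters.

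**Figure D3:**
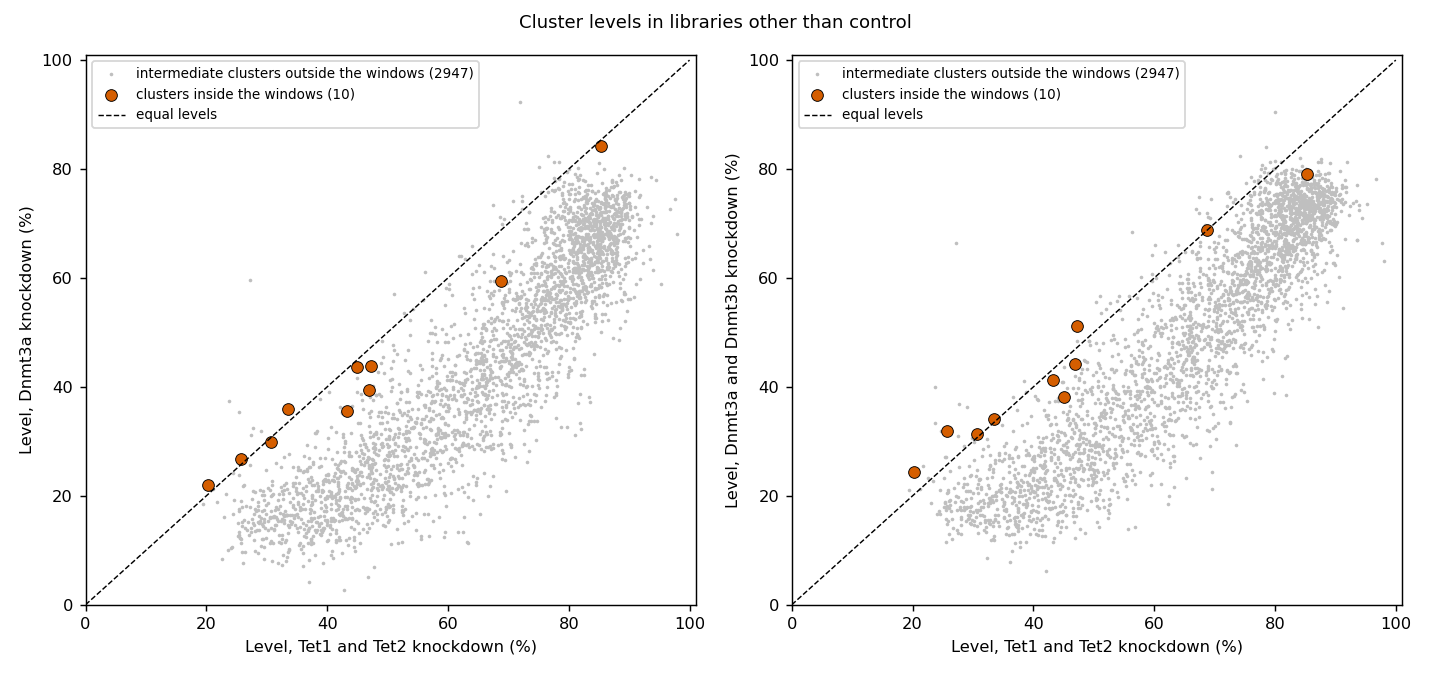
Level in the Dnmt3a knockdown (left) and in the Dnmt3a and Dnmt3b knockdown (right) against level in the Tet1 and Tet2 knockdown (percent, both axes) for intermediate clusters outside the windows (grey) and the 10 clusters inside them (orange), with the line of equal levels. In the left panel the outside clusters lie a median of 20.4 points to the Tet1 and Tet2 side of the line and the 9 intermediate window clusters a median of 1.29.

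Other pairs of knockdowns were read in the same way. Tet1 and Tet2 minus the double knockdown had a median of -0.70 points in the window clusters and 15.6 outside. Dnmt3b minus Dnmt3a had 1.09 inside and 16.9 outside, although the Plagl1 cluster reached 20.8. Dnmt3b minus the double knockdown had -3.01 inside and 12.2 outside. The double knockdown minus Dnmt3a differed little between the sets, at 4.75 inside and 4.22 outside. Tet1 and Tet2 minus Dnmt3b had 0.42 inside, with a range of -11.5 to 11.2, and 3.09 outside. Over the 5 libraries other than Dnmt1, the span from lowest to highest had a median of 9.21 points in the window clusters and 22.2 in the outside intermediate clusters, of which 3.53% had a span at or below 9.21. The largest span among the window clusters was 20.8 points, in the Plagl1 run with coarse levels, and 42.8% of the outside clusters were at or below that. High clusters of the genome, with a median span of 8.84, were close to the windows in this measure. The 9 clusters came from 6 windows, with none from Igf2r and Airn, and these figures describe the libraries and were not tested.

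Within windows the libraries did not always keep 1 order, as the profiles along 4 of the windows show. In Zrsr1 a run of 4 minus-strand cytosines, 1722 to 1758 bases into the window, read 46.6% in control, 63.4% in Tet1 and Tet2, 54.2% in Dnmt3a and 59.0% in the double knockdown. A neighbouring run of 5 on the same strand, 1947 to 1993 bases in, had control above these 3 libraries, with 50.9% in control, 42.5% in Tet1 and Tet2, 40.3% in Dnmt3a and 45.4% in the double knockdown. The window mean of Zrsr1 in the Tet1 and Tet2 library, -0.90 points from control, is therefore an average over runs that differ in sign. In Impact a run of 4 plus-strand cytosines, 1728 to 1766 bases in, read 16.1% in Tet1 and Tet2 against 33.1% in control, while the other libraries apart from Dnmt1 read 27.4% to 32.8%.

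**Figure D4:**
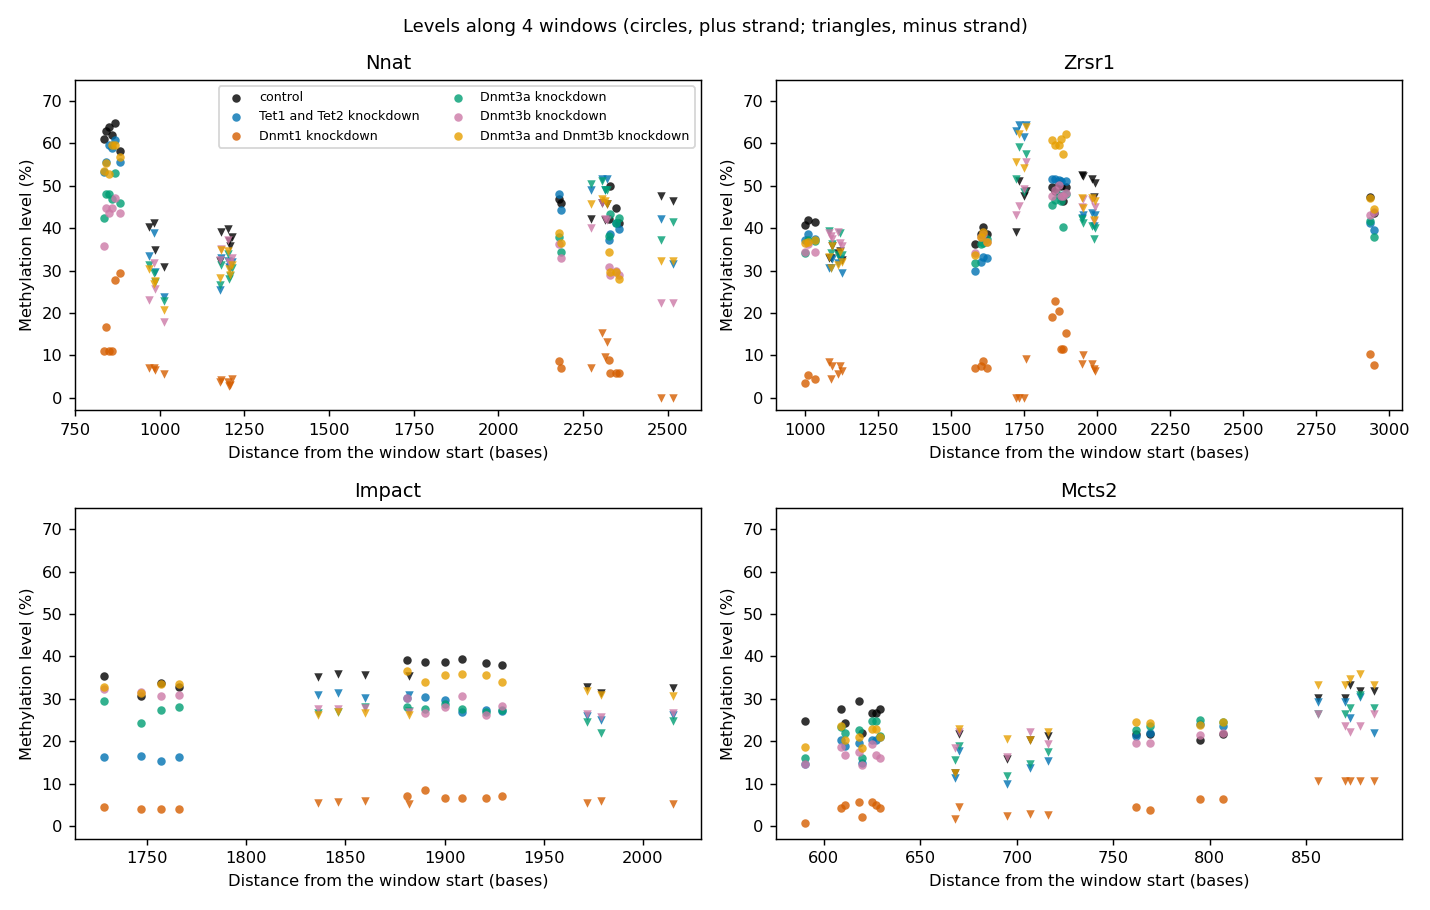
Methylation level (percent, y axis) of each shared cytosine along Nnat, Zrsr1, Impact and Mcts2 (bases from the window start, x axis), coloured by library, with circles for the plus and triangles for the minus strand. The Dnmt1 library lies below the other 5 at each of these cytosines, and the other libraries cross one another, as in Zrsr1 where 4 cytosines read a mean of 63.4% in Tet1 and Tet2 and 46.6% in control.

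At Igf2r with Airn the runs also split. The 3 minus-strand cytosines, 600 to 616 bases into the window, read 62.4% in Dnmt3b, 52.6% in control and 39.6% in Dnmt3a, whereas 3 plus-strand cytosines, 1102 to 1136 bases in, read 45.8%, 51.8% and 39.3%. In the Dnmt1 library a run of 4 plus-strand cytosines, 456 to 491 bases in, read 0% at each, against 45.9% in control. In Plagl1 the Dnmt3a difference was -19.6 points in the run nearer the window's end (7 cytosines) and -9.45 in the other (4 cytosines). Runs are read from an unknown number of molecules, so a run's difference has no error beyond what its neighbours show.

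Sequence next to the windows was covered at 3 of them within 5 kb, and at Nnat and Peg13 with a window of at least 5 shared cytosines. Around Nnat 21 cytosines read 32.9% in control and 12.4% in Dnmt1, so the window stood 12.9 points above its surroundings in control and at -3.76 points from them in Dnmt1. Around Peg13 4 cytosines read 90.3% in control, beside 89.0% in the window. In the Dnmt1 library those 4 read 45.5% and the window 17.4%, a difference of -28.1 points. The surroundings of both regions thus kept more of their methylation than the window did in this library, over few cytosines. Averaged over both regions, window minus surroundings in control was 5.80 points with surroundings of 5 kb. With 2 kb it was -20.0 and with 10 kb 24.2, over whichever windows had surrounding cytosines, so the set of windows can differ between these values. Neither its sign nor its size is settled by these data.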

How the data were processed

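Per the labels' protocols, E14 genomic DNA was cut with MspI and bisulfite converted before sequencing. CASAVA 1.8, Bismark 0.10.1 and the build mm9 appear in the submitters' processing notes, without their roles. No coverage minimum, duplicate removal or trimming was stated in the labels. The deposited values are methylation fractions of single cytosines, rounded by the authors to 3 decimals, with no counts. Exact depth and counting error are therefore unknown, and the planned Fisher tests and coverage minimum were not used. In some runs the levels took coarse steps, as a small number of reads would give. In the Dnmt1 library the 5 Peg13 cytosines 4484 to 4527 bases into the window, for example, read 40%, 20%, 10%, 0% and 30%. Fractions were turned into percent in Python 3.11.15 (pandas 2.3.3, NumPy 2.4.6) and drawn using matplotlib 3.10.9.

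Means used cytosines listed in all 6 libraries, with windows of at least 5 such cytosines entering averages. Calls needed 20 points and 80% of cytosines in 1 direction. The cluster rule was tried on simulated data in which neighbouring cytosines had independent noise. Neighbours here are read on the same molecules, so that trial does not give the rate of false calls in these data. The members, lists and rules were chosen with earlier results of these data known. By rule, all 9 windows are described, single cytosines are named only at a window's lowest and highest control level or inside a printed promoter, and outside the windows the 3 clusters nearest to the windows' median profile are named. The gene and promoter tables are of GRCm38.p6, and no coordinate was converted: promoters were placed by cytosine contexts.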

Additional observations from a re-analysis of the deposited data

How the results depend on the processing

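No paired analysis was possible because each group is 1 library and the labels carry no replicate numbers. Without replicates no library was left out, and the planned coverage minimum and Fisher tests were not run because the values come without counts. Depth is unknown, which limits single cytosines and short runs most.

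Under the planned settings the mean level over windows kept within the strand spread, and the Dnmt1 difference lay between -42.6 and -40.6 points, with 6 to 8 windows called. With control as the reference, no window changed sign for Dnmt1 or Dnmt3a under any setting run. Under 1 setting each, Grb10, Igf2r with Airn, Peg13 and Zrsr1 did for Tet1 and Tet2. Igf2r with Airn, Peg13 and Zrsr1 did so for Dnmt3b, and Grb10 and Zrsr1 for the double knockdown. Mcts2 did under 2 settings for the double knockdown. Added after seeing the data, the Dnmt1 difference without the Peg13 window was -38.2 points. Against the median of the other libraries, added after seeing the data, the differences became -0.95 (Tet1 and Tet2), -3.45 (Dnmt3a), -0.27 (Dnmt3b) and -0.041 (double). With that reference the windows higher, of 8, numbered 4 for Tet1 and Tet2, 1 for Dnmt3a, 2 for Dnmt3b and 4 for the double knockdown. At 10 points, windows lower, of 8, numbered 1 for Tet1 and Tet2, 2 for Dnmt3a and 1 for Dnmt3b. Clusters lower, of 10, numbered 1, 3 and 1, with 1 for the double knockdown. Dnmt1 clusters lower numbered 15 of 17 with at least 3 cytosines and 5 of 6 with at least 10, beside 9 of 10 in the main reading. Single cytosines past 10 points, lower and higher, numbered 45 and 9 of 179 for Tet1 and Tet2 and 43 and 5 of 164 for Dnmt3a. They numbered 39 and 6 of 175 for Dnmt3b and 36 and 13 of 169 for the double knockdown. Past 30 points they numbered 2 and 0, 2 and 0, 1 and 0, and 2 and 1, of the same totals. Shares over all cytosines and clusters were read only under the main rule, so the counts under other settings are not read as a result.

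Window minus surroundings, a mean over 2 regions in the main reading, depended on each of these settings, and the cause was not tested. The windows entering it were not held fixed across settings. In the order control, Tet1 and Tet2, Dnmt1, Dnmt3a, Dnmt3b and double knockdown, it was -20.0, -21.6, -30.7, -18.0, -25.4 and -22.3 points with surroundings of 2 kb, and 24.2, 21.3, -4.60, 21.2, 18.2 and 20.8 with 10 kb. Medians over cytosines gave 21.75, 20.2, -11.9, 22.8, 16.3 and 14.5, and the minus strand -3.02, -2.85, -11.1, -3.86, -6.26 and -7.36. In that order but for Dnmt1, the plus strand gave 13.4, 10.2, 12.9, 5.09 and 8.06, and bins weighing alike -4.01, -6.30, -3.43, -9.99 and -7.94. Widened windows gave 0.13 for Tet1 and Tet2.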

Other observations

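The median of the 8 windows in each library gave a profile of 46.1% in control, 42.4% in Tet1 and Tet2, 7.06% in Dnmt1, 40.1% in Dnmt3a, 39.5% in Dnmt3b and 42.7% in the double knockdown. The 3 autosomal clusters outside the windows whose 6 levels were nearest to it were mm9 chr3:58712570-58712617 (6 cytosines), chr7:32918688-32918854 (9 cytosines) and chr1:63247011-63247132 (9 cytosines). Their mean absolute differences from the profile were 2.03, 2.53 and 2.55 points. The chromosome 3 cluster read 44.1% in control, 44.9% in Tet1 and Tet2, 8.52% in Dnmt1 and 39.1% in Dnmt3a. The clusters were chosen for this likeness, so their levels are a description. No mm9 gene annotation was used here, so these clusters are not tied to genes.

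The cytosine contexts give 5 of the 6 letters of the ZFP57 hexamer. The context GCCGC on the plus strand, or GCGGC on the minus strand, was present at 6 of 144 shared window cytosines (4.17%) and at 14916 of 369208 autosomal ones (4.04%). The 6 lay in Mcts2 (3 cytosines), Peg13 (2 cytosines) and Igf2r with Airn (1 cytosine), and their Dnmt1 levels ran from 0% to 40%. Contexts at cytosines outside the listed fragments are not covered by this count.

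In the Zrsr1 window 3 cytosines were listed in control alone, at 20% to 54.5%, beside the 5 of Igf2r and Airn. The 5 at Igf2r and Airn read higher than any of the 10 shared control cytosines of that window, whose highest was 57.1%.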
